A study of Mus musculus with 14 samples.

Results

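The effect of elicitation shared by both genotypes was taken as the difference in microRNA (miRNA) level between all 8 nematode-elicited and all 6 thioglycollate-elicited macrophage samples, adjusted for genotype. It was estimated for every one of the 343 probes named for a mouse miRNA, among 1309 named miRNA probes on the array, and all 14 samples of the series entered. The question was which miRNAs move in the same direction with and without the IL-4 receptor.

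All animals were BALB/c mice, either wild type or IL-4 receptor knockout (IL4R KO). Peritoneal macrophages were obtained on day 3 after an intraperitoneal injection of thioglycollate, a sterile irritant (3 wild type and 3 IL4R KO arrays). The others were obtained on day 21 after Brugia malayi, a filarial nematode, had been placed in the peritoneum (4 wild type and 4 IL4R KO arrays). Per the study's design, nematode elicitation gives alternatively activated macrophages. Whether the IL4R KO cells were alternatively activated could not be checked on these arrays. In every group the cells were selected by adherence to plastic and exceeded 80% purity by staining for F4/80 and CD11b. The labels do not say how the receptor gene was disrupted, and do not tie replicates to different animals. A p-value here therefore reflects how much these samples vary, which could be technical variation alone. The arrays carry no probe for an mRNA, so neither the knockout nor the F4/80 and CD11b staining could be checked. The haematopoietic and myeloid miRNAs miR-142-3p, miR-223 and miR-21 stood above blank spots on all 14 arrays, as did miR-22, miR-23a, miR-24 and miR-27a. Of the other miRNAs in the myeloid and macrophage list described below, miR-142-5p did so on 7 of 8 nematode and all 6 thioglycollate arrays. miR-322 did so on 0 of 8 and 2 of 6 of these arrays, and miR-424 on 1 of 8 and 3 of 6.

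A mature miRNA guides Argonaute proteins to mRNAs that pair with it, mainly through its seed, bases 2 to 8, and lowers their translation and stability. Several miRNAs can be cut from one primary transcript, so members of such a cluster often share their level. In macrophages, miRNAs induced by Toll-like receptors and NF-kB, such as miR-155 and miR-146a, tune inflammatory signalling, and the IL-4 receptor drives the alternative programme through STAT6.

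Below are the mature sequences of the 7 miRNAs that passed the test of the shared effect. They are given because the result consists of these 7, and because the seed shows which of them would be expected to pair with the same sites. All 7 could be matched to RefSeq (GRCm38.p6), of which the sequences are the reference and not the array's capture probes. Capitals mark the seed, U stands for uracil, and each runs 5′ to 3′.
miR-221: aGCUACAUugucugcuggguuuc
miR-222: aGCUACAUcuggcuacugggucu
miR-34a: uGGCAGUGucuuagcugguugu
miR-342: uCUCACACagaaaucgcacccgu
miR-140*: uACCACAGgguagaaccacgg
miR-146: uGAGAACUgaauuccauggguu
miR-189: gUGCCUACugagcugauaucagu
The array names are those of the time of its design. miR-140* is now miR-140-3p, miR-342 is miR-342-3p, miR-146 is miR-146a-5p and miR-189 is miR-24-1-5p, the lesser used arm of a miR-24 precursor. miR-221 and miR-222 share the seed GCUACAU, and no other pair among the 7 shares one. miR-221 lies at chrX:19146307-19146329 and miR-222 at chrX:19146901-19146923, both on the minus strand and outside any other RefSeq gene. miR-34a, at chr4:150068473-150068494 on the plus strand, and miR-146, at chr11:43374435-43374456 on the minus strand, also lie outside genes of other kinds. miR-342 (chr12:108658680-108658702), miR-140* (chr8:107551288-107551308) and miR-189 (chr13:63301213-63301235), all on the plus strand, lie within the spans of the protein-coding genes Evl, Wwp2 and Aopep.

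Values are log2 normalized intensities of the dye Hy3, and a difference is the log2 fold change of nematode over thioglycollate cells. Mouse probes had a median net signal between 13.7 and 31.6 intensity units on an array, where empty and negative control spots had one between 6.69 and 9.18. Per array, 33 to 267 mouse probes lay above the 95th percentile of these control spots, called blank spots here. That percentile ran from 12.6 to 111 units, so a count of arrays above blank spots depends on how widely those spots vary too. Nematode wild type replicate 4 stood apart, with a correlation of 0.835 with the mean of its group against 0.936 to 0.977 for the other 13 arrays. Elicitation, day of harvest and slide cannot be told apart, because each of the 7 slides held 1 elicitation and the dates in the file headers placed the thioglycollate slides first. Genotype was tied to slide as well, since only slide 12, with thioglycollate arrays, held both genotypes. The effects within a genotype, and their difference between genotypes, can therefore not be told apart from slide either. In bulk RNA, fewer cells of a type and less of a miRNA per cell cannot be told apart either.

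With both genotypes fitted together, miR-221, miR-222, miR-34a, miR-342, miR-140*, miR-146 and miR-189 passed the test, each at a lower level in the nematode arm. These 7 of 343 mouse probes (2.04%) passed a limma adjusted p of 0.05 in the shared effect, and all 7 were lower. None passed in the other direction, although 13 probes were higher and 33 lower at an unadjusted p under 0.05, together 13.4% of probes. The median difference over the 343 probes was -0.03, with 152 positive and 191 negative. The calls depended on the scaling. With median scaling 1 remained, miR-222, and with no normalization between arrays 2 probes passed, miR-222 and miR-21, both lower, so the other 6 lost their call under each. With cyclic loess in place of quantile normalization 2 probes were higher, miR-671 and miR-689, and 7 lower. These were not the original 7, because miR-140*, miR-146 and miR-189 lost their call. With plain background subtraction 1 was higher, miR-150, and 5 lower, and the same 3 of the original 7 lost their call. Without nematode wild type replicate 4 the count rose to 11, of which 2 were higher and 9 lower, the original 7 among them. Without nematode wild type replicate 3 it rose to 12, and miR-146 was not among these.

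**Figure D1:**
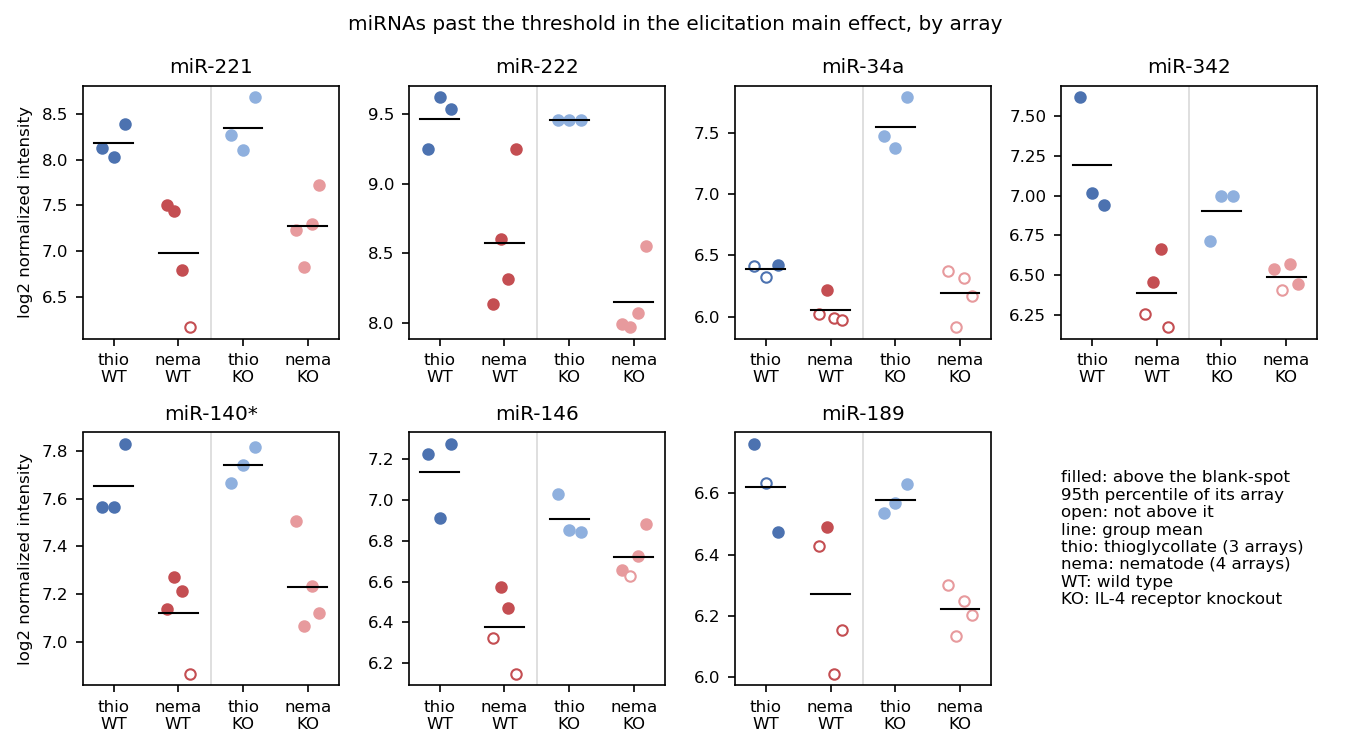
Log2 normalized intensity (vertical axis, a separate scale for each miRNA) of the 7 miRNAs past the threshold, 1 point per array in the 4 groups (3 thioglycollate and 4 nematode arrays for each genotype). Lines are group means and open points were not above the blank spots of their array. In every panel the nematode mean lies below the thioglycollate mean of the same genotype, by 0.19 for miR-146 in IL4R KO cells and by 1.35 for miR-34a there.

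The pair with a common seed showed the largest shared differences. miR-221 and miR-222 restrain the cell cycle inhibitor p27 and the receptor Kit, as known from human cells, and come from neighbouring precursors. For miR-221, the thioglycollate arrays read 8.13, 8.03 and 8.39 in wild type and 8.28, 8.10 and 8.68 in IL4R KO cells. The nematode arrays read 7.50, 7.44, 6.79 and 6.17 in wild type and 7.23, 6.83, 7.30 and 7.73 in IL4R KO cells. All 8 nematode arrays were below all 6 thioglycollate arrays, and the lowest of them was nematode wild type replicate 4. miR-221 was 2.21-fold lower overall (log2 fold change -1.14, SE 0.20, limma adjusted p = 0.00802), by -1.21 in wild type and -1.08 in IL4R KO cells. Without nematode wild type replicate 4 the shared difference was -1.01 (limma adjusted p = 0.00356).

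miR-222 read 9.25, 9.62 and 9.53 in wild type thioglycollate cells and 9.46 on each of the 3 IL4R KO thioglycollate arrays, where it took the same rank, and quantile normalization gives equal ranks equal values. After nematode elicitation it read 8.13, 8.60, 8.32 and 9.25 in wild type and 7.99, 7.97, 8.07 and 8.55 in IL4R KO cells. The groups were separate in IL4R KO cells and touched in wild type cells, where nematode replicate 4 had the value of thioglycollate replicate 1. miR-222 was 2.15-fold lower overall (log2 fold change -1.10, SE 0.16, limma adjusted p = 0.00388), by -0.89 in wild type and -1.31 in IL4R KO cells. Without nematode wild type replicate 4 the difference was -1.22 (limma adjusted p = 2.64e-05). The difference between the genotypes was 0.42 (95% confidence interval -0.27 to 1.11, interaction limma adjusted p = 0.904). Within a genotype, miR-222 passed in IL4R KO cells (limma adjusted p = 0.00764) and missed the threshold in wild type cells (limma adjusted p = 0.0732), while miR-221 missed it in both (0.0696 and 0.135). Their summed net signal, before normalization between arrays, was 267 to 597 intensity units on the nematode and 583 to 1181 on the thioglycollate arrays, which overlap. After quantile normalization, on the linear scale less the offset, the sums were 264 to 580 and 789 to 1013, with no overlap.

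miR-140* was among the most even of the 7 between genotypes. It is the arm of the miR-140 hairpin that many tissues use most, and the locus is best known from cartilage. It read 7.57, 7.57 and 7.83 in wild type and 7.67, 7.74 and 7.82 in IL4R KO thioglycollate cells. In nematode-elicited cells it read 7.14, 7.27, 7.21 and 6.87 in wild type and 7.50, 7.07, 7.23 and 7.12 in IL4R KO cells. No nematode array reached the lowest thioglycollate array. The shared difference was -0.52 (SE 0.08, 1.43-fold lower, limma adjusted p = 0.00521), being -0.53 with and -0.51 without the receptor. The difference between genotypes was -0.02 (95% confidence interval -0.40 to 0.36). The other arm, miR-140, was at -0.26 (SE 0.09, limma adjusted p = 0.143), with -0.26 in each genotype, and exceeded blank spots on 4 arrays of each elicitation.

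miR-342, found in B and T lymphocytes as well as in myeloid cells and hosted by the actin regulator gene Evl, also moved in both genotypes. It read 7.62, 7.02 and 6.94 in wild type and 6.72, 7.0 and 7.0 in IL4R KO thioglycollate cells. It read 6.25, 6.45, 6.66 and 6.17 in wild type and 6.54, 6.41, 6.57 and 6.45 in IL4R KO nematode cells. The 8 nematode arrays lay below the 6 thioglycollate arrays, and the closest pair was 6.66 against 6.72. The shared difference was -0.61 (SE 0.12, 1.52-fold lower, limma adjusted p = 0.0147), with -0.81 in wild type and -0.41 in IL4R KO cells. It passed in wild type alone (limma adjusted p = 0.0297) and not in IL4R KO alone (0.363), but the difference between these effects was -0.39 (95% confidence interval -0.88 to 0.10, interaction limma adjusted p = 0.904). miR-342 exceeded blank spots on all 6 thioglycollate arrays and on 5 of the 8 nematode arrays.

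miR-189 had the smallest difference of the 7 and was dim. It read 6.76, 6.63 and 6.47 in wild type and 6.54, 6.57 and 6.63 in IL4R KO thioglycollate cells, then 6.43, 6.49, 6.01 and 6.15 in wild type and 6.30, 6.13, 6.25 and 6.20 in IL4R KO nematode cells. The groups were separate in IL4R KO cells and overlapped in wild type cells, where nematode replicate 2 exceeded thioglycollate replicate 3. The shared log2 fold change was -0.36 (SE 0.08, limma adjusted p = 0.0280), with -0.35 in wild type and -0.36 in IL4R KO cells. It stood above blank spots on 5 of 6 thioglycollate arrays and on 1 of 8 nematode arrays. In IL4R KO cells no nematode array was above blanks, so its fold there is a bound, at least 1.20-fold lower in nematode cells.

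The precursor of miR-189 lies within 10000 bases of those of miR-23b and miR-27b and also gives miR-24, and these 3 were looked up after the values had been seen. miR-23b was at -0.62 (SE 0.17, limma adjusted p = 0.0799), with -0.55 in wild type and -0.68 in IL4R KO cells. miR-24, also made from a precursor on chromosome 8, was at -0.57 (SE 0.22, limma adjusted p = 0.235), and miR-27b was at -0.33 (SE 0.22, limma adjusted p = 0.553). All 3 values were negative in each genotype and none passed the threshold. All 3 stood above blank spots on every array. miR-23b read 9.31 to 9.96 on the 6 thioglycollate arrays (median 9.35) and 8.17 to 9.31 on the 8 nematode arrays (median 8.98).

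miR-34a was called in the shared effect with a size that differed between genotypes by test, and miR-146 was called with unequal estimates whose difference did not pass the adjusted threshold. miR-34a is a target of p53 that lowers cell cycle and survival genes. It read 6.41, 6.33 and 6.42 in wild type and 7.47, 7.38 and 7.79 in IL4R KO thioglycollate cells, so the IL4R KO thioglycollate arrays were the highest of all. After nematode elicitation it read 6.03, 6.22, 5.99 and 5.98 in wild type and 6.37, 5.92, 6.32 and 6.17 in IL4R KO cells. Within each genotype the nematode arrays were below the thioglycollate arrays, although nematode IL4R KO replicate 1 exceeded wild type thioglycollate replicate 2. The shared log2 fold change was -0.84 (SE 0.16, limma adjusted p = 0.0128), made up of -0.33 in wild type and -1.35 in IL4R KO cells. The 2 effects differed by 1.02 (95% confidence interval 0.64 to 1.40, interaction limma adjusted p = 0.0224), so the additive model averages unequal estimates of 1 sign here. No probe passed in the interaction with no background correction, plain background subtraction or adjustment over all named probes. The wild type effect alone missed the threshold (limma adjusted p = 0.393) and the IL4R KO effect passed (limma adjusted p = 2.87e-05). miR-34a was above blank spots on 3 of 3 IL4R KO thioglycollate arrays and on none of the 4 IL4R KO nematode arrays, which gives a bound of at least 2.29-fold lower. In wild type cells it was above blanks on 1 of 3 and 1 of 4 arrays. The size of the wild type effect, and with it the difference between genotypes, is therefore poorly determined. Among the probes matched to RefSeq by name, the seed of miR-34a, GGCAGUG, also occurs in miR-34b (-0.03, SE 0.09) and miR-449 (0.07, SE 0.14). These were above blank spots on 1 and 2 of 14 arrays. Seeds of unmatched probes were not compared. miR-34c was at -0.04 (SE 0.07) and above blank spots on 0 nematode and 2 thioglycollate arrays.

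miR-146, induced by NF-kB and an inhibitor of Toll-like receptor signalling through Traf6 and Irak1, read 7.22, 6.91 and 7.27 in wild type and 7.03, 6.85 and 6.84 in IL4R KO thioglycollate cells. It read 6.33, 6.57, 6.47 and 6.15 in wild type and 6.65, 6.63, 6.73 and 6.88 in IL4R KO nematode cells. The wild type groups were separate and the IL4R KO groups overlapped, since nematode replicate 4 exceeded 2 of 3 thioglycollate arrays. The shared log2 fold change was -0.47 (SE 0.11, limma adjusted p = 0.0467), with -0.76 in wild type (limma adjusted p = 0.00504) and -0.19 in IL4R KO cells (limma adjusted p = 0.599). The difference of -0.57 between genotypes (95% confidence interval -0.94 to -0.21) had an unadjusted limma p of 0.00507 and an adjusted p of 0.218. miR-146b, which has the same seed and an otherwise near-identical sequence, was at -0.03 (SE 0.25, limma adjusted p = 0.947). How far the 2 probes pick up each other's target was not tested.

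**Figure D2:**
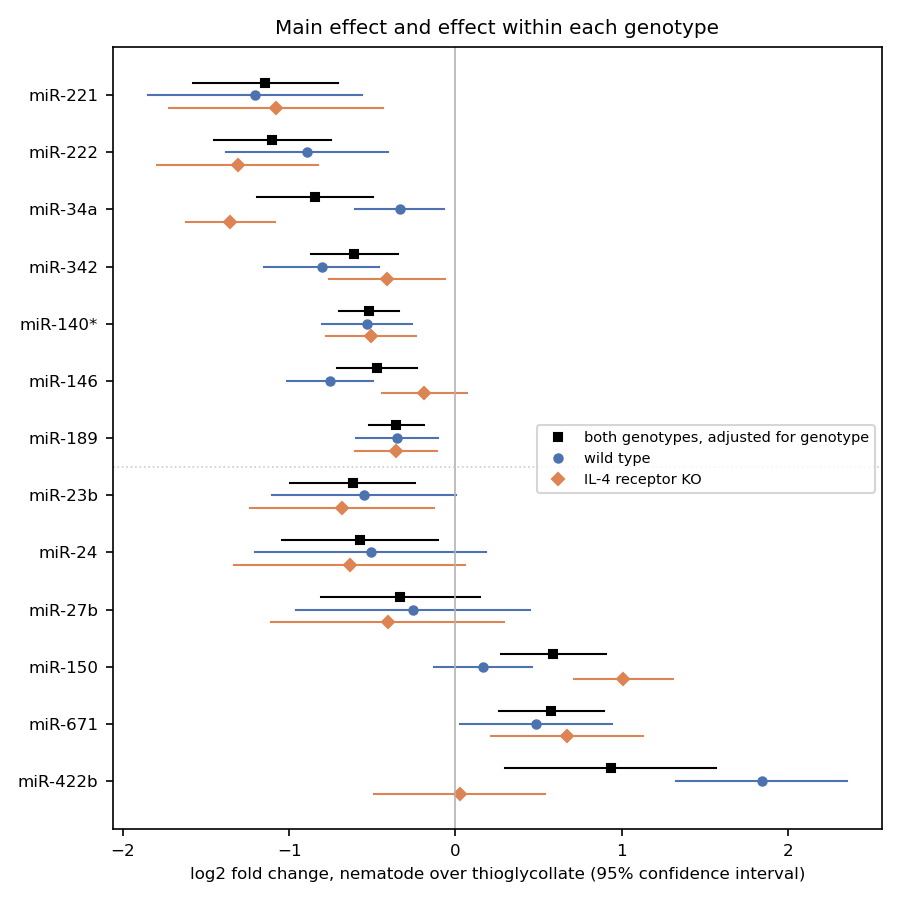
Log2 fold change of nematode over thioglycollate cells (horizontal axis) with 95% confidence intervals from limma, for the 7 miRNAs past the threshold (above the dotted line) and 6 others the text describes. Black squares are the shared effect, blue circles wild type and orange diamonds IL4R KO cells. The genotypes lie close together for miR-140* (-0.53 and -0.51) and miR-189 (-0.35 and -0.36) and apart for miR-34a (-0.33 and -1.35) and miR-422b (1.84 and 0.03).

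All 7 called probes had a negative estimate in each genotype, that of miR-146 in IL4R KO cells with an unadjusted limma p of 0.143. The 2 effects had the same sign in 203 of the 343 probes (59.2%) and opposite signs in 140, which is the background for that agreement, and the additive estimate itself rests on both genotypes. Another view, without adjustment for the number of probes, asked for an unadjusted limma p under 0.05 in each genotype separately. With 1 sign 10 probes (2.92%) met it, 9 lower and 1 higher. These were miR-221, miR-222, miR-34a, miR-342, miR-140*, miR-189, miR-186, miR-467* and miR-701, all lower, and miR-671, higher. With opposite signs 1 probe met it, miR-125b (0.33 in wild type and -0.43 in IL4R KO cells). Groups without overlap in both genotypes were seen for 7 probes (2.04%), miR-221, miR-34a, miR-342, miR-140*, miR-467*, miR-701 and miR-107, each lower after nematode elicitation, and for none higher. Within single genotypes, 27 probes (7.87%) had no overlap in wild type and 54 (15.7%) in IL4R KO cells, and 3 (0.875%) had none between all 8 and all 6 arrays, namely miR-221, miR-342 and miR-140*. By the adjusted p, 3 probes (0.875%) passed in wild type, 5 (1.46%) in IL4R KO cells and 2 (0.583%) in the interaction. At an unadjusted p under 0.05 the interaction had 23 probes (6.71%). The miRNAs past the threshold in wild type were miR-422b, the only one higher (0.292% of probes), and miR-146 and miR-342, which were lower. In IL4R KO cells they were miR-689, miR-150 and miR-551b (higher; the last above blank spots on 1 of 14 arrays), miR-222 and miR-34a. No probe passed in both genotypes separately.

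**Figure D3:**
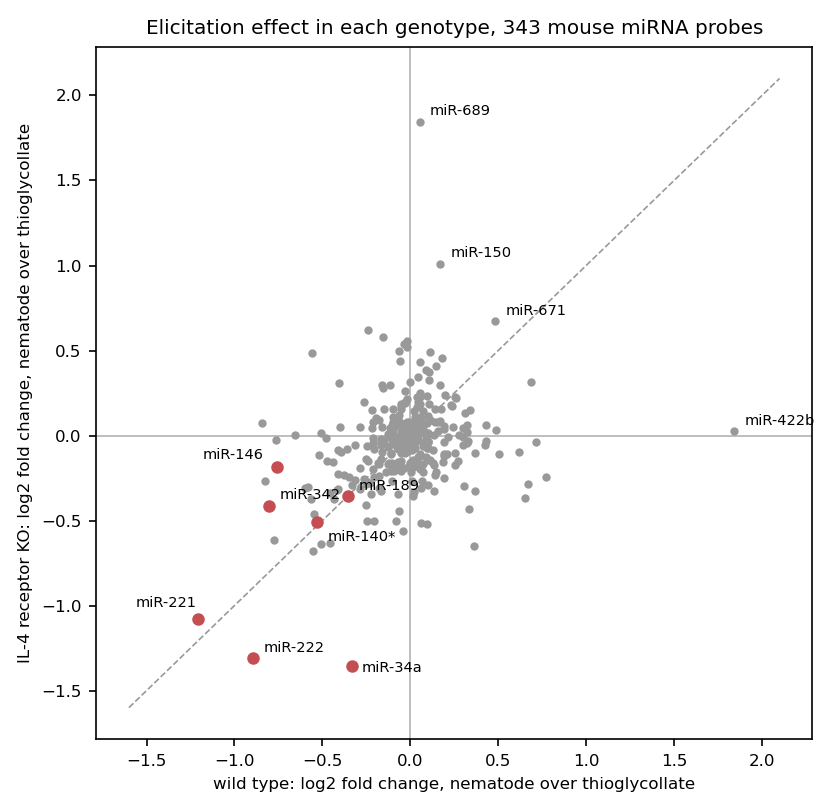
Log2 fold change of nematode over thioglycollate cells in wild type (horizontal axis) and in IL4R KO cells (vertical axis), 1 point for each of 343 mouse miRNA probes, with the 7 past the threshold of the shared effect in red and the dashed line marking equal effects. The 7 lie below 0 on both axes, miR-221, miR-140* and miR-189 near the line, while miR-422b lies along the horizontal axis (1.84 and 0.03) and miR-689 along the vertical axis (0.05 and 1.85).

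Among miRNAs just short of the threshold, both directions occurred. miR-467*, at -0.55 (SE 0.13, limma adjusted p = 0.0533), read 6.44 to 7.48 on thioglycollate and 6.01 to 6.52 on nematode arrays, and exceeded blanks on 4 of 6 thioglycollate and 3 of 8 nematode arrays. miR-150, a miRNA of mature lymphocytes, was at 0.59 (SE 0.15, limma adjusted p = 0.0538), with 0.17 in wild type and 1.01 in IL4R KO cells. Its 4 IL4R KO nematode arrays read 7.03, 7.03, 7.42 and 7.42, and no other array exceeded 6.51. The rise was therefore seen in IL4R KO cells (limma adjusted p = 0.00107), and the difference between genotypes was -0.84 (95% confidence interval -1.26 to -0.43, interaction limma adjusted p = 0.0935). miR-671 was at 0.58 (SE 0.15, limma adjusted p = 0.0538), with 0.48 in wild type and 0.67 in IL4R KO cells. It read 7.30 to 8.24 on the thioglycollate arrays (median 8.15) and 8.07 to 9.06 on the nematode arrays (median 8.62), with overlap. miR-18, of the miR-17-92 cluster, was at -0.55 (SE 0.15, limma adjusted p = 0.0700), with -0.83 in wild type and -0.27 in IL4R KO cells. miR-186 (-0.31), miR-340 (-0.36) and miR-701 (-0.26) each had a limma adjusted p of 0.0728. miR-467*, miR-671, miR-186, miR-340 and miR-701 were named after their values had been seen.

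miR-422b, an older name of miR-378-3p, had the highest wild type effect of all probes. Its additive estimate was 0.94 (SE 0.30, limma adjusted p = 0.121), between 1.84 in wild type and 0.03 in IL4R KO cells. It read 6.83 to 7.46 on the 6 thioglycollate arrays, 6.92 to 7.26 on the IL4R KO nematode arrays and 8.55 to 9.78 on the wild type nematode arrays. The effects differed by 1.82 (95% confidence interval 1.09 to 2.54, interaction limma adjusted p = 0.0224). The other arm of that hairpin, named miR-378 on the array, was at 0.05 (SE 0.10).

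The 10 measured miRNAs of the myeloid and macrophage list all had a negative shared log2 fold change, as had 191 of all 343 mouse probes. None of the 10 was past the threshold, and their median was -0.29 against -0.03 over all probes. Their summed net signal, before normalization between arrays, was 5986 to 12970 intensity units on nematode and 10200 to 17620 on thioglycollate arrays, with overlap. The lowest was miR-23a (-0.69, SE 0.24, limma adjusted p = 0.151), which is near-identical to miR-23b, so their signals may be shared. miR-21, which is raised in activated macrophages, was at -0.40 (SE 0.13, limma adjusted p = 0.133). It held the top rank and so the value 12.37 on all 6 thioglycollate arrays, against 11.38 to 12.37 on the nematode arrays, so its difference is compressed by the quantile step. Without normalization between arrays it was at -0.83 (limma adjusted p = 0.0396), and without nematode wild type replicate 4 at -0.47 (limma adjusted p = 0.0492). miR-223, the granulocyte and myeloid miRNA that alone made up the granulocyte list, was at -0.14 (SE 0.19), with 0.36 in wild type and -0.65 in IL4R KO cells. miR-142-3p was at -0.33 (SE 0.35) and miR-142-5p at -0.25 (SE 0.43), with ranges from 7.76 to 11 and from 7.16 to 10.6 across the arrays. The low end was a single array for each. For miR-142-3p it was nematode wild type replicate 4, and the other arrays read 9.13 to 11. For miR-142-5p it was nematode IL4R KO replicate 2, which was not above blank spots, and the other arrays read 9.04 to 10.6.

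Over all mouse probes, 7 of 343 (2.04%) were lower and none higher, which is the background for each list. Of the 6 measured miRNAs induced by Toll-like receptors and NF-kB, 1 was lower, miR-146, and none higher, with a list median of 0.05. A single call in so short a list was not read as a result about the list. miR-155, the inducible proinflammatory member, was at 0.30 (SE 0.18, limma adjusted p = 0.478), with 0.11 in wild type and 0.49 in IL4R KO cells. Of the 6 members of the miR-34 and p53-linked list 1 was lower, miR-34a, with a median of -0.03. Its member miR-194 was at 0.21 (SE 0.08, limma adjusted p = 0.221). Among miRNAs of miR-17-92 and its paralog clusters there were 14 measured probes, with none past the threshold, 11 negative and a median of -0.13. Its 2 probes for miR-20a gave -0.39 (SE 0.16) and 0.00 (SE 0.17), so they did not give 1 value for that miRNA. The let-7 family, 8 members that hold back proliferation, had none past the threshold and a median of -0.10, with let-7c at 0.50 (SE 0.20, limma adjusted p = 0.257) and let-7d at -0.27.

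The miRNAs of other cell types were mostly dim, and 1 of them was called. Of the 5 lymphocyte miRNAs, miR-342 was lower and none higher, against 7 of 343 mouse probes (2.04%) lower, and the list median was -0.05. Their summed net signal, before normalization between arrays, was 62.5 to 266 units on nematode and 98.3 to 202 on thioglycollate arrays. The part of lymphocytes in the miR-342 difference was not tested, and miR-150, the other member above blanks on more than 3 arrays, had the opposite sign. No member passed among the 3 erythroid (median -0.03), 2 endothelial (-0.12), 9 stromal and mesothelial (0.06), 8 epithelial (-0.06) and 4 muscle and liver miRNAs (-0.02). The lowest of these were miR-126-3p, of endothelium (-0.25, SE 0.07, limma adjusted p = 0.0953), and miR-1, of muscle (-0.25, SE 0.07, limma adjusted p = 0.0804), each above blanks on 1 of 8 nematode and 3 of 6 thioglycollate arrays. In the stromal list miR-199b was at 0.19 (SE 0.19), with 0.67 in wild type and -0.29 in IL4R KO cells (interaction limma adjusted p = 0.289). In the same list miR-199a was never above blank spots.

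In the remaining lists no member passed the threshold. The miR-15/16 family (8 members) had a median of -0.12, the miR-30 family (5) -0.06, miR-26 with miR-29 and miR-101 (7) -0.20, and miR-99 with miR-100 and miR-125 (5) -0.04. Within the last list miR-99a was at 0.26 (SE 0.16), miR-100 at 0.20 (SE 0.12) and miR-125b at -0.05 (SE 0.15). The hypoxia miRNA miR-210 was at 0.11 (SE 0.14), and the pair of IL-4 receptor linked probes, miR-422b and miR-378, had a median of 0.49. The Dlk1-Dio3 imprinted cluster, 39 measured members, had a median of 0.04, with 16 negative and 23 positive values. It included miR-410 (0.24, SE 0.11) and miR-341 (0.15, SE 0.07), neither past the threshold.

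**Figure D4:**
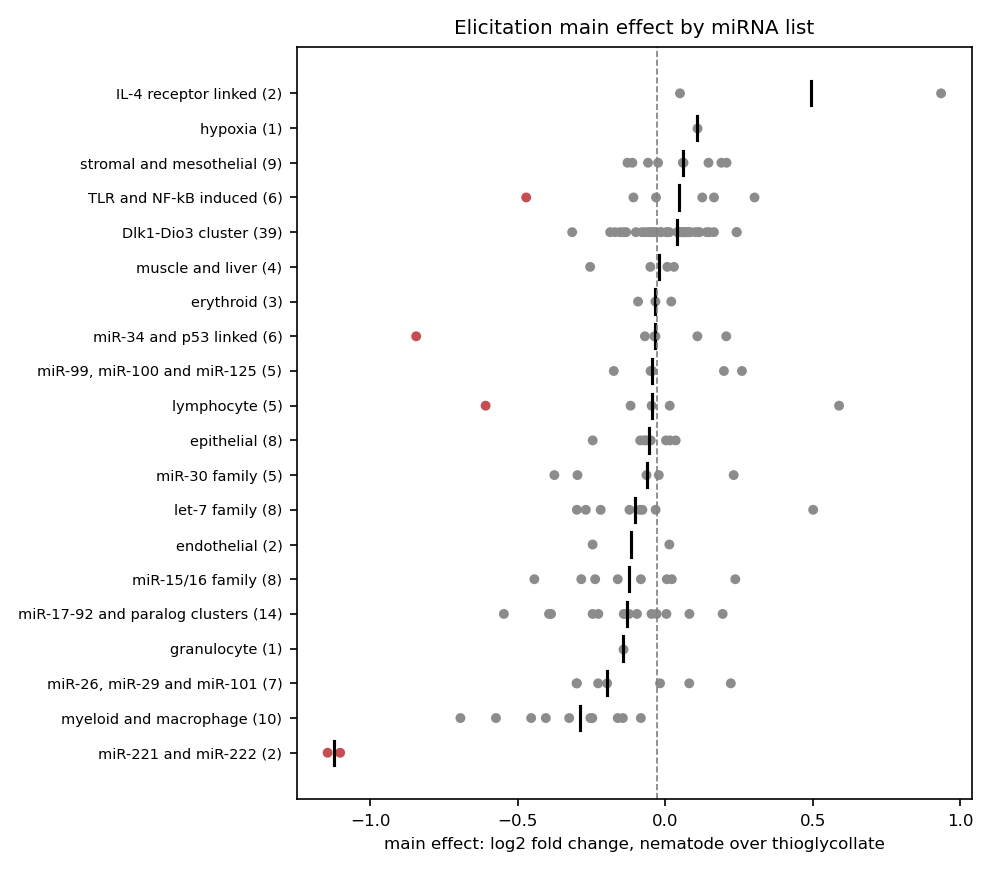
Shared log2 fold change of nematode over thioglycollate cells (horizontal axis) for the members of 20 miRNA lists (number of measured members in brackets), 1 point per probe, red where past the threshold. Black ticks are list medians and the dashed line is the median of all 343 mouse probes (-0.03). The miR-221 and miR-222 pair lies at -1.14 and -1.10. All 10 myeloid and macrophage probes lie below 0, as do 191 of the 343 mouse probes.

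The 7 calls did not hold equally well across processing choices and arrays. miR-222 passed under all 16 other settings and with any 1 of the 14 arrays left out. Among these settings, plain background subtraction and the authors' value table are the same values, so each tally counts that fit under both names. Slide as a random block was nearly the reported fit, with a correlation within slides of -0.00189, and called the same 7. It cannot separate slide from elicitation, because each slide held 1 elicitation. miR-221 and miR-34a passed under 13 settings, miR-342 under 12 and miR-140* under 10, and these 4 passed with any 1 array left out. miR-189 passed under 6 settings and 7 of the 14 omissions, and miR-146 under 5 settings and 4 omissions. In the setting limited to probes above blank spots, miR-34a and miR-189 qualified mainly through thioglycollate arrays. They exceeded blanks on 4 and 5 of these 6 arrays, against 1 of 8 nematode arrays each. Their calls in that setting are therefore not separate support. miR-146 kept its call without thioglycollate IL4R KO replicate 2 or 3, nematode wild type replicate 4 or nematode IL4R KO replicate 4, and lost it without any of the other 10 arrays. miR-189 lost its call without thioglycollate wild type replicate 1 or 2, thioglycollate IL4R KO replicate 1 or 3, or nematode IL4R KO replicate 2, 3 or 4. The log2 fold change of each of the 7 was negative under every setting and every omission.

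**Figure D5:**
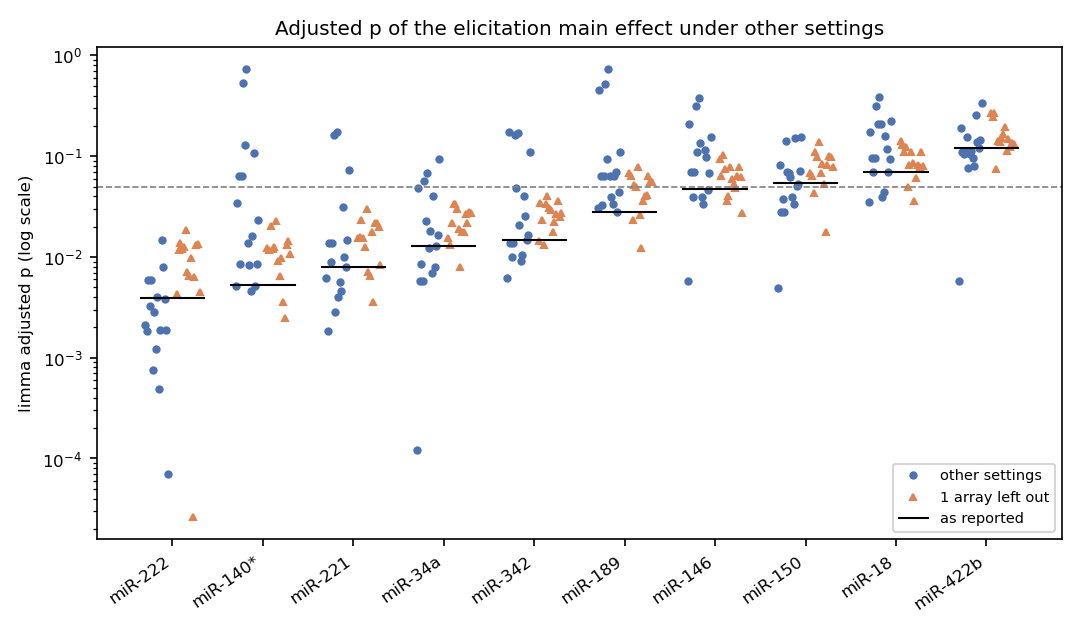
limma adjusted p of the shared effect (vertical axis, log scale) for the 7 called miRNAs, miR-150, miR-18 and miR-422b. Black bars are the reported values, blue circles the other settings, orange triangles the fits with 1 array left out, and the dashed line marks 0.05. All points of miR-222 lie below the line, the highest at 0.0186, while those of miR-146 and miR-189 lie on both sides.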

How the data were processed

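miRNA was measured in 14 samples, 1 Hy3-labelled miRCURY LNA array each. The deposited files, 1 per slide of 2 arrays, give the linear foreground intensity of each spot, per the file headers. The authors' deposited value table is also an intensity and equalled foreground minus local background, so the background was taken as foreground minus that table.

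Background was removed per array with normexp (offset 50, fitted on every spot), followed by log2. A mouse probe is the mean of its 3 spots. Quantile normalization used the 1309 named miRNA probes. Differences of dim probes and of the brightest are compressed by these steps. In R 4.3.3, limma 3.58.1 fitted elicitation and genotype additively to all 14 arrays (lmFit, eBayes, two-sided moderated test). Benjamini-Hochberg adjustment ran over the 343 mouse probes, with a threshold of 0.05. The effect within each genotype and the interaction came from a fit with 1 mean per group. The fits were tested on simulated data with independent normal errors. Those data held no slide effect, outlying array or floor for dim probes, so the test does not cover these. A probe counts as above blank spots where the median net signal of its spots exceeds the 95th percentile over 702 blank and 24 negative control spots on that array, which 208 mouse probes did on at least 3 arrays. A probe above them on no array of a group has only a bound there: the bright group's mean over the dim group's mean of, per array, the probe's own value or, if higher, the lowest signal that exceeded the blanks. No mouse spot was saturated. The number of arrays limits the precision.

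Groups come from the labels. Replicate numbers were not taken to pair samples, because the deviations of the 19 same-numbered pairs correlated at -0.24 to 0.32 and only 5 pairs exceeded 0.1. Named were all probes past the threshold in the shared effect, a set list of macrophage-related miRNAs, the probes past the threshold in the interaction and up to 2 members per list with the smallest p. The comparison, the named miRNAs and the 20 lists were chosen with earlier results of these data known. RefSeq mature names were matched for 64 of the 343 mouse probes. Alternatives covered background, normalization, spot summary, dim probes, adjustment, the test, slide, slide position, a replicate block and leaving out each array.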

Additional observations from a re-analysis of the deposited data

Results flagged for a closer look

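In 88 groups of 4 arrays of the named miRNAs, the highest or lowest array stood far from the others in 2, and chance flags about 1 in 20 groups. miR-125b read 6.47 in nematode IL4R KO replicate 1 against 6.68 to 6.70 in the other 3 arrays of its group. miR-141 read 6.36 in nematode wild type replicate 3 against 6.11 to 6.13. The elicitation effect differed between genotypes by test for 2 miRNAs: miR-34a by 1.02 and miR-422b by 1.82 on the log2 scale, wild type minus IL4R KO (interaction limma adjusted p = 0.0224 for each).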

How the results depend on the processing

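As reported, 7 probes passed in the shared effect, 3 in wild type, 5 in IL4R KO cells and 2 in the interaction. The shared effect gave 4 with no background correction, 1 with median scaling, 2 with no normalization between arrays, 16 with the median of spots, 11 among the 208 probes above blank spots, 4 with trend and robust and 3 with the replicate block. The replicate block kept miR-222 and miR-140* and added miR-21. Other settings gave 5 to 10, with 10 for the mean of the within-genotype effects and 7 with slide as a random block. Wild type gave 5 with no background correction, 1 with cyclic loess or no normalization, 5 with quantile over mouse probes alone, 9 with the median of spots and 8 above blank spots. IL4R KO gave 10 with cyclic loess, 8 with no normalization and 3 adjusted over all named probes. The interaction gave 0 with no background correction, plain subtraction, the authors' value table or adjustment over all named probes, 4 with median scaling or no normalization and 1 with trend and robust. Plain subtraction and the authors' table are the same values. Leaving out 1 array gave 5 to 12 in the shared effect, 2 to 9 in wild type, 3 to 8 in IL4R KO cells and 0 to 7 in the interaction. Nematode wild type replicate 4 gave the highest of the last 3 ranges when left out (9, 8 and 7), and the interaction count was 0 without thioglycollate wild type replicate 2 or 3 or thioglycollate IL4R KO replicate 1 or 3.

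Signs turned for 9 miRNAs under other settings, none of them called; as reported they ran from -0.38 (miR-30a-5p) to 0.05 (miR-378). miR-378 was at -0.06 with no background correction. miR-126-5p was at -0.10 with plain subtraction or the authors' table, -0.03 with the median of spots and -0.02 with the replicate block. Median scaling gave miR-125b 0.20, let-7d 0.01, miR-30a-5p 0.00, miR-30d 0.02 and miR-144 0.03. No normalization gave miR-125b 0.22, let-7d 0.03, miR-30a-5p 0.03, miR-30d 0.04, miR-29c 0.01, miR-144 0.06 and miR-206 0.02. Cyclic loess gave miR-125b 0.09 and miR-144 0.03, quantile over mouse probes 0.02 and 0.03, and the median of spots 0.00 for miR-125b. With 1 array left out, miR-125b ran from -0.14 to 0.05, miR-126-5p from -0.03 to 0.05, miR-142-5p from -0.44 to 0.09, miR-144 from -0.09 to 0.04 and miR-223 from -0.24 to 0.01. The cause of these changes was not tested. Signal close to blank spots limits miR-34a and miR-189 most among the calls.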
